A study of Homo sapiens with 6 samples.

Results

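The genes described here are 35 human genes of amino acid supply: 21 enzymes of amino acid synthesis, transamination and folate-bound carbon metabolism, and 14 amino acid transporters. They were taken by name from a table of 21533 genes, and all 35 were found. Their mRNA was read by RNA sequencing of LX-2, an established line of human hepatic stellate cells, the mesenchymal cells that lay down matrix in injured liver. In 3 samples the cells had been transfected with an siRNA against PERK (encoded by EIF2AK3), a kinase that senses endoplasmic reticulum stress, and in 3 samples with a control siRNA. Every sample was then given palmitic acid, a saturated fatty acid, and RNA was collected 24 h later, so that no sample without palmitic acid was compared. The cells grew in medium with 2% serum and 2 mM glutamine, which bears on genes that respond to amino acid supply. Whether same-group samples are separate cultures is not stated in the labels, and the p-values therefore measure a spread that may be technical.

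Cells obtain amino acids by uptake and by synthesis. PERK phosphorylates eIF2α, which slows translation in general and favours translation of the transcription factor ATF4, and ATF4 is known to raise many enzymes and transporters of amino acid supply by binding C/EBP-ATF response elements near their starts. The kinase GCN2 (encoded by EIF2AK4) reaches the same factor when amino acids run short. Serine, made from a glycolytic intermediate, feeds folate-bound carbon units in the mitochondria and the cytosol, and several transporters work only as heterodimers with the glycoprotein encoded by SLC3A2. The SLC3A2 partner encoded by SLC7A11 imports cystine, the precursor of cysteine and glutathione.

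Libraries held 17937141 to 19535253 exon reads in PERK siRNA samples and 18560051 to 19585872 in control siRNA samples, and a floor of 3 reads equals 0.153 to 0.167 CPM (reads scaled to a library of 1000000). EIF2AK3 stood at 4.37, 4.96 and 5.515 CPM in PERK siRNA samples, against 12.9, 13.0 and 13.9 CPM in control siRNA samples (log2 fold change -1.42, SE 0.10, adjusted p = 3.0e-13, edgeR). Of 10 mesenchymal and stellate markers, 8 were tested, led by VIM, COL1A1 and SPARC, and the summed level of all 10 was 6292 to 6310 TPM (a relative level corrected for gene length) in PERK siRNA samples and 5660 to 5804 TPM in control siRNA samples. The members of this list moved both ways: ACTA2 was 3.86-fold and COL1A2 2.30-fold higher in mean CPM, COL3A1 was lower (log2 fold change -0.89), and COL1A1 did not pass the test (0.01). DCN and LUM stayed under 1 TPM in every sample. Of 8 hepatocyte markers 6 had no read in any sample, among them ALB and APOA1. TF was too low to test, and SERPINA1, with 67 to 96 reads in a sample, did not pass the test (-0.19). The hepatocyte sum averaged 3.10 TPM with PERK siRNA and 3.56 TPM with control siRNA. The summed levels of 5 endothelial (1.80 to 2.43 TPM in PERK siRNA samples, 5.90 to 6.12 TPM in control siRNA samples), 5 macrophage (15.3 to 15.9 TPM in PERK siRNA samples, 24.5 to 26.4 TPM in control siRNA samples) and 5 cholangiocyte markers (85.6 to 94.8 TPM in PERK siRNA samples, 130.6 to 138.4 TPM in control siRNA samples) were lower with PERK siRNA, and their part in the results was not tested. Every sample is of the LX-2 line, and these sums describe mRNA levels and not numbers of endothelial, macrophage or cholangiocyte cells. Single genes carried these sums. PECAM1 averaged 0.313 TPM with PERK siRNA and 4.44 TPM with control siRNA (log2 fold change -3.80), which is more than the whole endothelial difference, while KDR (0.44) and VWF (-0.30) did not pass the test and CDH5 and TEK were too low to test. Of the macrophage markers CSF1R (-3.14) and CD14 (-0.48) fell, PTPRC was too low to test, and CD163 and MARCO had no read in any sample. SOX9 made up most of the cholangiocyte sum, at 74.8 TPM with PERK siRNA and 109.3 TPM with control siRNA (-0.54), KRT7 fell too (-0.82), KRT19 and EPCAM were too low to test, and CDH1 had no read in any sample. Mitochondrially encoded mRNAs took 0.659 to 0.673% of reads in PERK siRNA samples and 0.514 to 0.575% in control siRNA samples, and the part of this difference was not tested either.

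Among the listed genes, transporter mRNAs were mostly lower with PERK siRNA, whereas enzyme mRNAs moved less and in both directions. Of the 35 genes 34 passed the filter on low counts, and 13 of these rose and 14 fell at an adjusted p under 0.05. This was 79.4% of those tested, beside 69.5% of all 12973 genes tested (34.4% higher and 35% lower). Among the 21 enzymes 10 rose and 6 fell, with a median log2 fold change of 0.05 and a range of -0.40 to 0.91. Among the 13 tested transporters 3 rose and 8 fell, with a median of -0.39 and a range of -1.93 to 2.53, beside a median of 0.00 over all genes tested. Against a null of a 1.2-fold change, 3 enzymes were higher and 2 lower (23.8% of the enzymes), and 1 transporter was higher and 7 lower (61.5%), beside 36.1% of all genes (18.1% higher and 18.1% lower). For 28 of the 34 genes the PERK siRNA and control siRNA samples did not overlap, beside 71.8% of all genes. These counts and medians describe the 2 classes, and the difference between the classes was not tested.

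**Figure D1:**
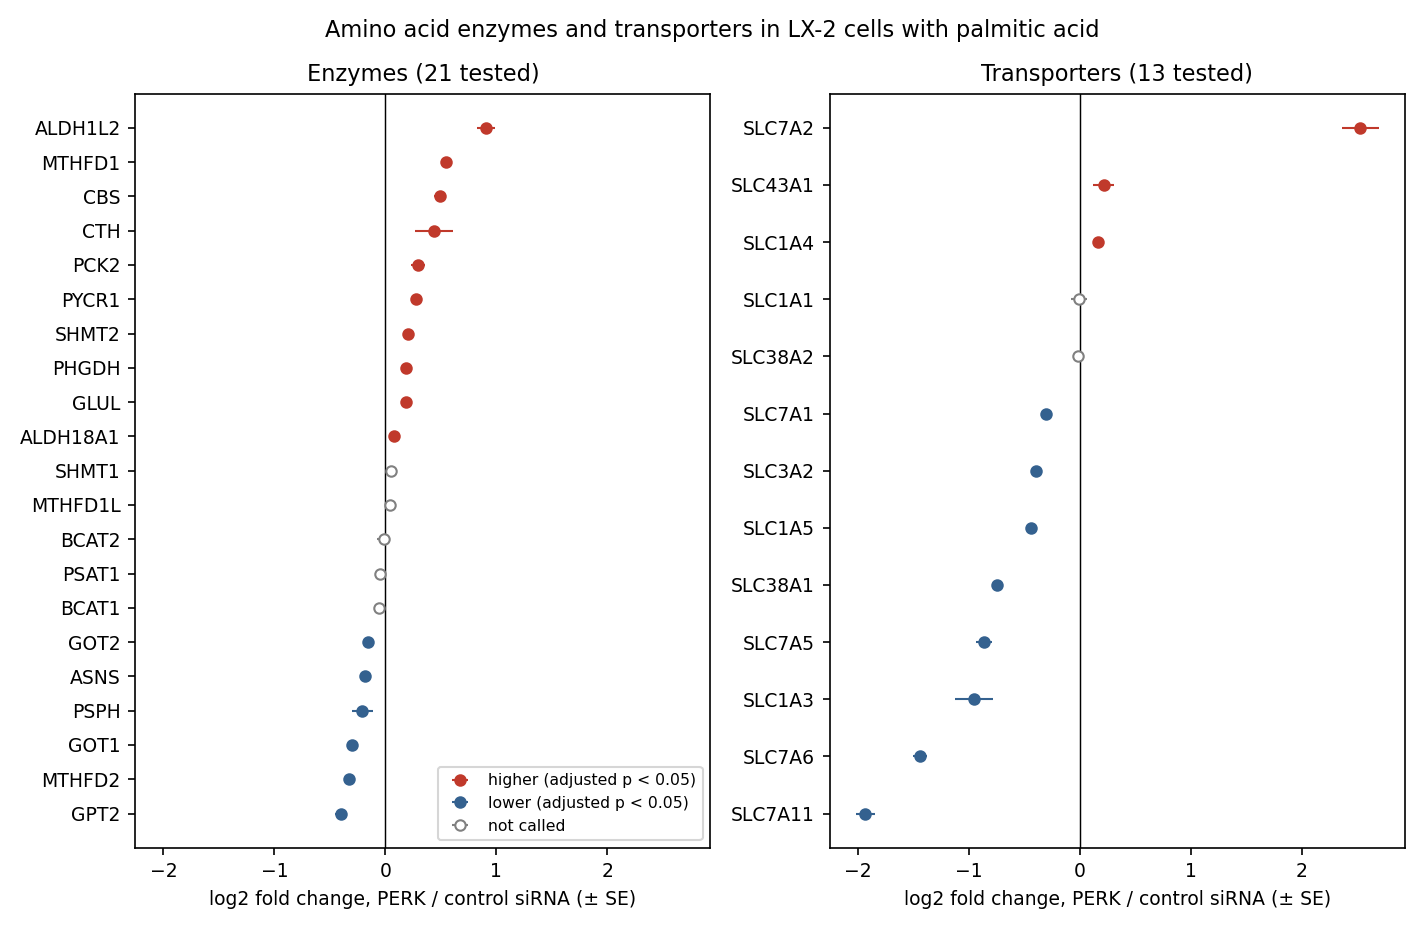
Log2 fold change of each tested gene (PERK siRNA over control siRNA, x axis, ± SE from edgeR) for 21 enzymes (left) and 13 transporters (right), with 3 samples a group. Filled points passed an adjusted p of 0.05. Enzymes lie between -0.40 and 0.91, and transporters between -1.93 and 2.53.

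The classes also differed in their summed levels per length. The 14 transporters summed to 1124, 1115 and 1134 TPM in PERK siRNA samples, against 1370.0, 1404 and 1316 TPM in control siRNA samples, or 82.5% of the control level. The 21 enzymes summed to 1898, 1901 and 1899 TPM in PERK siRNA samples, against 1869, 1863 and 1868 TPM in control siRNA samples, or 101.7% of the control level. The transporter sums lay lower in every PERK siRNA sample, and the enzyme sums lay slightly higher in every one. SLC38A2 alone made up 41.7 ± 0.40% of the transporter sum with PERK siRNA and 34.8 ± 0.47% with control siRNA (SD, n = 3 each), and without it the sum was 655.0 to 657.0 TPM in PERK siRNA samples and 865 to 910 TPM in control siRNA samples.

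**Figure D2:**
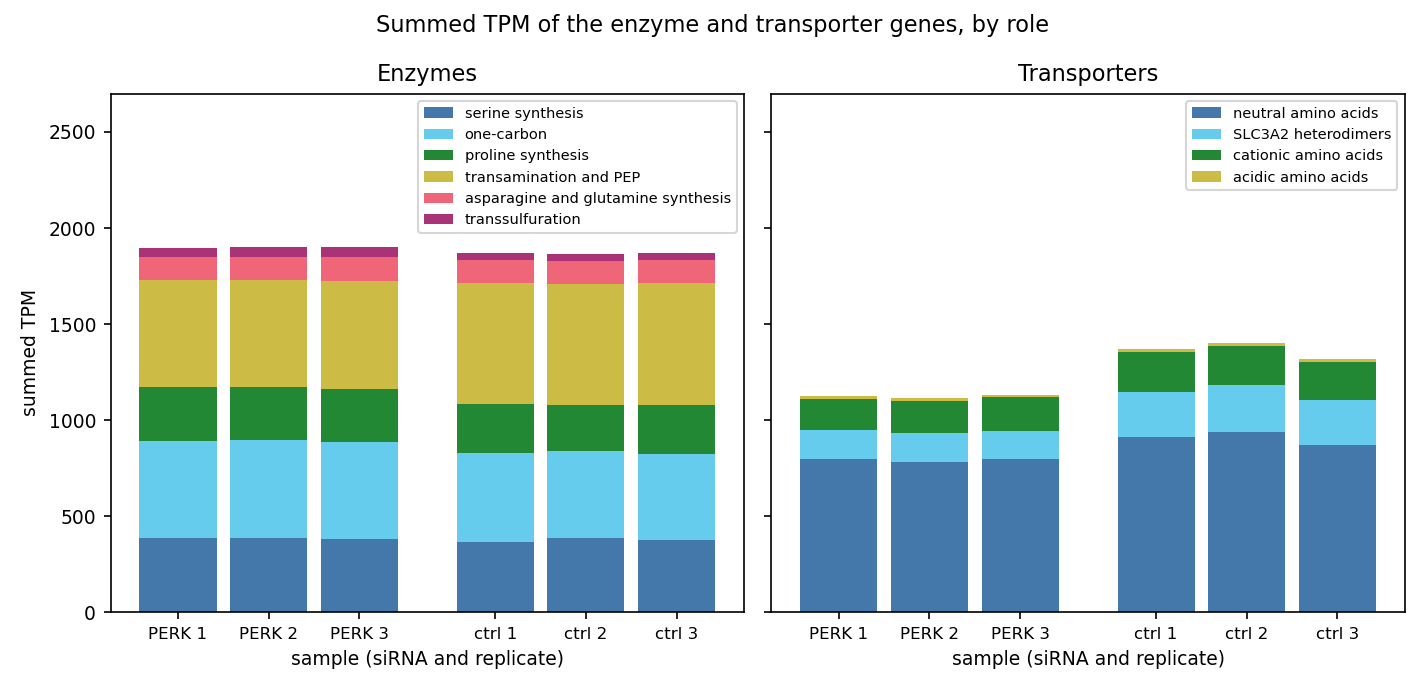
Summed TPM (y axis, from 0) of the enzymes (left) and transporters (right) in each sample, stacked by role. Transporter bars reach 1115 to 1134 TPM in PERK siRNA samples and 1316 to 1404 TPM in control siRNA samples, while enzyme bars reach 1898 to 1901 and 1863 to 1869 TPM.

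Promoter sequence is shown for the C/EBP-ATF response element, through which ATF4 is known to act, to set its letters beside the direction of each gene. RefSeq promoter windows (250 bases before to 50 after a start, GRCh38.p14) were found for 27 of the 35 genes. The 8 without one were ALDH1L2, BCAT2, GPT2, PSPH, PYCR1, SHMT2, SLC7A11 and SLC7A2. The element, searched as TGATGNAAN on both strands, was present for 10 of the 27 genes, beside 4.45% of 27305 genes with a window. Among the 10453 tested genes with a window, 2.75% had the element. By window, which allows for genes with several starts, the element was present in 25.5% of 47 windows of the 27 genes and in 3.61% of all 35116. ATF4 is known to raise many genes of amino acid supply, so these shares describe the choice of genes and are not a result. Stretches of 30 bases around the match follow, read on the strand of the gene with the match in capitals:
ASNS: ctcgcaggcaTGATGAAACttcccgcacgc
GOT1: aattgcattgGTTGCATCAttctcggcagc
SLC3A2: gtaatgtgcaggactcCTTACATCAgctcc
SLC38A1: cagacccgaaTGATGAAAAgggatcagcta
SLC7A1: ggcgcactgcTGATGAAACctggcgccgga
SLC1A5: aggaagtggcTGATGCAAGctgtccagggt
SLC1A3: aggaaatgacTGATGCAAAgcagggttaac
SLC1A4: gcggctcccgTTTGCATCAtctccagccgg
MTHFD1L: ccgccggctcTGATGCAATcgcgccgggcg
BCAT1: gtcttcctgcTGATGCAATccgctaggtcg

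The capitals of GOT1, SLC3A2 and SLC1A4 are matches on the opposite strand. The first 7 genes fell with PERK siRNA, SLC1A4 rose, and MTHFD1L and BCAT1 did not pass the test, so that genes with the element differed in direction. It was present for 7 of the 11 genes with a window that fell, 1 of the 9 that rose and 2 of the 6 that did not pass the test. SLC6A9, which also has a window, was not tested and is in none of these groups, here or below. The stretches lie at chr7:97872457-97872486 (ASNS, minus strand), chr10:99430804-99430833 (GOT1, minus strand), chr11:62881719-62881748 (SLC3A2, plus strand) and chr12:46266501-46266530 (SLC38A1, minus strand). Those of SLC7A1, SLC1A5 and SLC1A3 lie at chr13:29595662-29595691 (minus strand), chr19:46784892-46784921 (minus strand) and chr5:36596358-36596387 (plus strand). Those of SLC1A4, MTHFD1L and BCAT1 lie at chr2:64989381-64989410 (plus strand), chr6:150866347-150866376 (plus strand) and chr12:24949130-24949159 (minus strand). RefSeq starts can differ from the gene ends annotated in GENCODE. The SLC1A3 stretch lies before its annotated gene (chr5:36606355-36688334), and the SLC1A5 stretch, like others, lies within its gene (chr19:46774883-46788594). Which starts these cells used was not tested. The antioxidant element core TGACNNNGC, which NRF2 is known to bind, was present for 9 of the 27 genes (33.3%). This was beside 16.1% of all genes with a window and 19.2% of the tested ones. By window this core was present in 19.1% of the 47 windows and 13.3% of all windows. It was present for 8 of the 11 genes that fell, 1 of the 9 that rose and 0 of the 6 that did not pass. The E-box CACGTG, which MYC is known to bind, was present for 7 of the 27 genes (25.9%). This was beside 8.78% of all genes with a window and 12.6% of the tested ones. By window the E-box was present in 19.1% of the 47 windows and 7.26% of all windows. It was present for 2 of the 11 genes that fell, 3 of the 9 that rose and 2 of the 6 that did not pass. For no element was the split by direction tested, and shares among all genes that fell or rose were not computed. A match is a description of letters in these windows and not a bound site.

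All 4 of the listed genes that encode parts of SLC3A2 heterodimers fell. SLC3A2, the shared heavy chain (ENSG00000168003; chromosome 11, 62856102 to 62888875, plus strand), stood at 133, 133 and 126 CPM in PERK siRNA samples, against 169.9, 173 and 173 CPM in control siRNA samples (log2 fold change -0.39, SE 0.03, adjusted p = 5.5e-13, edgeR). SLC7A11, the cystine importer (ENSG00000151012; chromosome 4, 138164097 to 138242349, minus strand), was measured at 27.5, 29.9 and 30.3 CPM in PERK siRNA samples, against 108, 124 and 104 CPM in control siRNA samples. The 2 groups were far apart, and the SLC7A11 difference was the largest fall among the 34 genes (-1.93, SE 0.08, adjusted p = 5.1e-07). SLC7A5 carries large neutral amino acids such as leucine. It had 11.3, 11.1 and 11.4 CPM in PERK siRNA samples, against 19.7, 20.9 and 20.6 CPM in control siRNA samples (-0.86, SE 0.07, adjusted p = 9.7e-12).

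SLC7A6, which exchanges cationic for neutral amino acids, fell as well. Its level was 12.4, 11.1 and 13.2 CPM in PERK siRNA samples, against 33.2, 32.8 and 33.3 CPM in control siRNA samples (-1.44, SE 0.06, adjusted p = 6.4e-18). Its count is uncertain, since 44.4% of its annotated exon bases overlap SLC7A6OS on the opposite strand and only 53.9% of its reads were placed uniquely. On uniquely placed reads alone it had 123, 109 and 141 reads in PERK siRNA samples, against 363, 328 and 335 in control siRNA samples, a log2 fold change of -1.43. SLC7A6OS itself did not pass the test (-0.12, adjusted p = 0.24).

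The listed light chains fell by more than the shared heavy chain. The TPM ratio of SLC7A11 to SLC3A2 was 0.085 ± 0.0065 with PERK siRNA and 0.246 ± 0.023 with control siRNA (SD, n = 3 each), a difference of -1.54 in log2 ratio. The ratio of SLC7A5 to SLC3A2 was 0.068 ± 0.0029 with PERK siRNA and 0.094 ± 0.0020 with control siRNA, a difference of -0.46. Neither set of ratios overlapped between groups. Exact 2-sided permutation tests over samples gave p = 0.1 for each, the smallest that 3 against 3 samples allow, and an adjusted p of 0.109 over the 12 pairs compared.

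**Figure D3:**
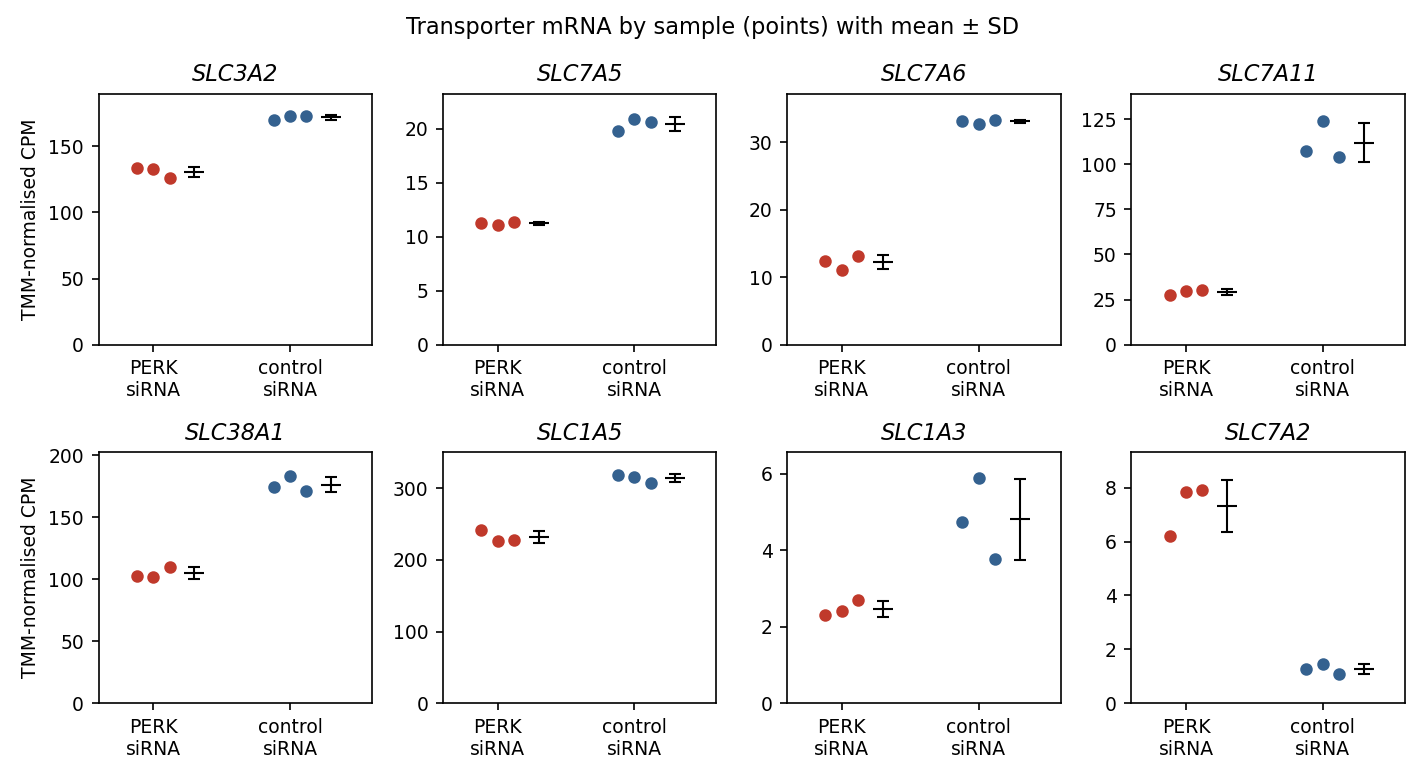
TMM-normalised CPM (y axis, from 0) of 8 transporter genes, with 1 point for each PERK siRNA sample (left, red) and each control siRNA sample (right, blue) and the mean ± SD beside the points. The groups do not overlap for any of these 8 genes, and SLC7A2 alone among them is higher with PERK siRNA, at 6.22 to 7.91 against 1.09 to 1.45 CPM. The 8 genes shown were chosen, and 71.8% of all genes tested did not overlap.

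Carriers of neutral amino acids split. SLC38A1, a sodium-coupled glutamine transporter (ENSG00000111371; chromosome 12, 46183063 to 46270017, minus strand), fell to 103, 102 and 110.3 CPM in PERK siRNA samples, against 174, 184 and 171 CPM in control siRNA samples (-0.75, SE 0.03, adjusted p = 2.0e-17). Its neighbour SLC38A2, which carries similar substrates and lies 88.2 kb away on the same strand, was the most abundant transporter. SLC38A2 had 666, 645 and 675 CPM in PERK siRNA samples and 673, 689.6 and 640.0 CPM in control siRNA samples, with overlapping groups, and it did not pass (-0.01, SE 0.03, adjusted p = 0.72). The TPM ratio of SLC38A2 to SLC38A1 was 12.4 ± 0.35 with PERK siRNA and 7.42 ± 0.13 with control siRNA (SD, n = 3 each; difference 0.74 in log2 ratio, exact permutation p = 0.1).

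SLC1A5 and SLC1A4, related exchangers of small neutral amino acids, went in opposite directions. SLC1A5, a main route of glutamine uptake, stood at 241, 226 and 227 CPM in PERK siRNA samples, against 319, 316 and 308 CPM in control siRNA samples (-0.44, SE 0.03, adjusted p = 1.3e-14). Of its annotated exon bases 23.4% overlap a non-coding gene on the opposite strand. SLC1A4 rose slightly, to 44.3, 47.3 and 47.5 CPM in PERK siRNA samples, against 41.5, 42.3 and 40.3 CPM in control siRNA samples (0.17, SE 0.04, adjusted p = 0.0016). Their TPM ratio was 7.04 ± 0.54 with PERK siRNA and 10.7 ± 0.16 with control siRNA (SD, n = 3 each; difference -0.61 in log2 ratio, exact permutation p = 0.1).

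SLC43A1, a carrier of branched-chain amino acids, had 8.91, 9.67 and 10.1 CPM in PERK siRNA samples and 8.29, 8.31 and 8.18 CPM in control siRNA samples (0.21, SE 0.09, adjusted p = 0.044). That call was lost without any 1 of PERK siRNA samples 2 and 3 and control siRNA samples 1, 2 and 3, with adjusted p of 0.093, 0.17, 0.085, 0.072 and 0.094, and with DESeq2 (0.17), no scaling factors (0.055) or no filter (0.073). SLC6A9, a glycine transporter, was at the limit of detection with 1 read in each PERK siRNA sample and 0, 1 and 2 reads in control siRNA samples, all under the floor of 3 reads. It was not tested and no fold is given.

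The cationic amino acid transporters also diverged. SLC7A1, the main arginine and lysine carrier of most cells, fell to 335, 343 and 362 CPM in PERK siRNA samples, against 435, 431 and 418 CPM in control siRNA samples (-0.30, SE 0.03, adjusted p = 5.9e-11). Its relative SLC7A2 showed the largest rise of the 34 genes, from a low base, with 111, 153 and 152 reads in PERK siRNA samples against 25, 27 and 21 reads in control siRNA samples. This was 7.32 ± 0.95 CPM with PERK siRNA and 1.27 ± 0.18 CPM with control siRNA (SD, n = 3 each; 2.53, SE 0.17, adjusted p = 4.6e-14). Per length SLC7A2 remained scarce, at 0.0198 ± 0.0021 of the SLC7A1 TPM with PERK siRNA and 0.0028 ± 0.00036 with control siRNA.

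Of the carriers of acidic amino acids, SLC1A3, a glutamate and aspartate transporter, was scarce and fell. It had 41, 47 and 52 reads in PERK siRNA samples, against 93, 110 and 73 reads in control siRNA samples (-0.95, SE 0.17, adjusted p = 1.3e-05). SLC1A1, a glutamate transporter that can also carry cysteine, had 15.6, 16.0 and 15.2 CPM in PERK siRNA samples and 16.5, 15.9 and 14.6 CPM in control siRNA samples, and did not pass the test (-0.01, SE 0.07, adjusted p = 0.94).

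Among enzymes, the largest rises were of ALDH1L2 and MTHFD1, both of folate-bound carbon metabolism. Of the 6 genes of that group 3 rose, 1 fell and 2 did not pass the test (66.7% called, beside 69.5% of all genes). ALDH1L2, a mitochondrial enzyme that oxidises formyl-tetrahydrofolate (ENSG00000136010; chromosome 12, 105019784 to 105084577, minus strand), rose to 16.9, 18.9 and 18.9 CPM in PERK siRNA samples, against 9.05, 9.44 and 10.7 CPM in control siRNA samples (0.91, SE 0.08, adjusted p = 6.5e-11). MTHFD1, the cytosolic trifunctional enzyme (ENSG00000100714; chromosome 14, 64388031 to 64463457, plus strand), had 275, 274 and 281 CPM in PERK siRNA samples, against 193, 183 and 191 CPM in control siRNA samples (0.55, SE 0.03, adjusted p = 4.3e-17). SHMT2, which converts serine to glycine in mitochondria, rose less, to 180.4, 179 and 184 CPM in PERK siRNA samples, against 161, 157 and 155 CPM in control siRNA samples (0.20, SE 0.03, adjusted p = 2.0e-07).

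MTHFD2, the mitochondrial dehydrogenase and cyclohydrolase, was the 1 of the 6 that fell. It had 113, 109 and 108 CPM in PERK siRNA samples, against 139, 137 and 138 CPM in control siRNA samples (-0.33, SE 0.03, adjusted p = 5.4e-11). Of its annotated exon bases 27.2% overlap SLC4A5 on the opposite strand, a gene with at most 9 reads in any sample. The cytosolic SHMT1 (69.6 ± 1.31 CPM with PERK siRNA, 67.4 ± 1.14 CPM with control siRNA; 0.05, adjusted p = 0.26) and the mitochondrial MTHFD1L (58.8 ± 1.31 CPM with PERK siRNA, 57.1 ± 1.51 CPM with control siRNA; SD, n = 3 each; 0.04, adjusted p = 0.33) did not pass the test.

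The TPM ratio of MTHFD2 to MTHFD1 was 0.570 ± 0.019 with PERK siRNA and 1.05 ± 0.026 with control siRNA (SD, n = 3 each; difference -0.88 in log2 ratio, exact permutation p = 0.1). For SHMT2 to SHMT1 the ratios were 2.53 ± 0.084 with PERK siRNA and 2.28 ± 0.057 with control siRNA (difference 0.15, exact permutation p = 0.1). Both sets of ratios were without overlap between groups.

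**Figure D4:**
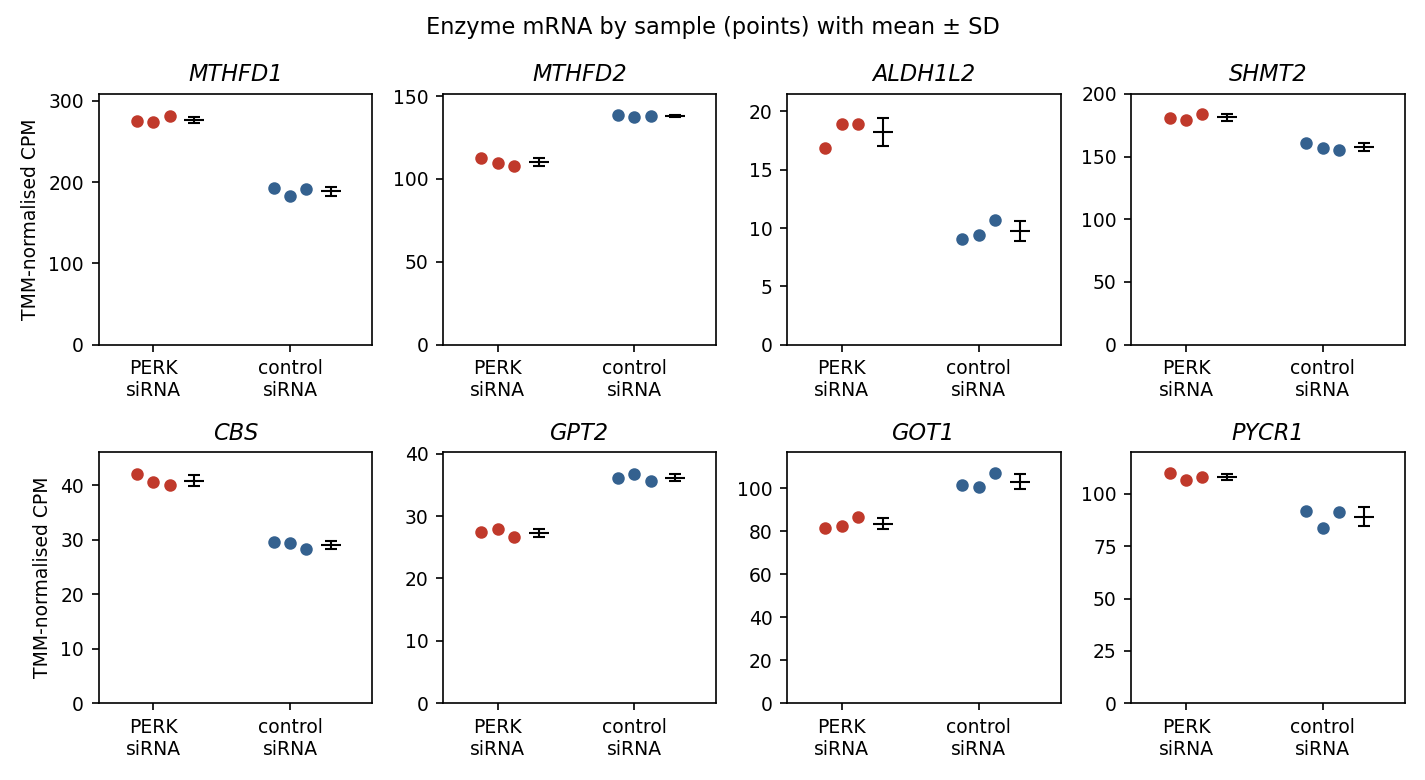
TMM-normalised CPM (y axis, from 0) of 8 enzyme genes, with 1 point for each PERK siRNA sample (left, red) and each control siRNA sample (right, blue) and the mean ± SD beside the points. MTHFD1, ALDH1L2, SHMT2, CBS and PYCR1 are higher and MTHFD2, GPT2 and GOT1 lower with PERK siRNA, without overlap between groups. The 8 genes shown were chosen, and 71.8% of all genes tested did not overlap.

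The enzymes of serine synthesis changed little. PHGDH, which catalyses the first step, had 184, 190.1 and 188 CPM in PERK siRNA samples, against 165, 164 and 164 CPM in control siRNA samples (0.19, SE 0.03, adjusted p = 3.4e-07). PSAT1, the aminotransferase of the next step, had 139, 133 and 131 CPM in PERK siRNA samples and 134, 143 and 140.2 CPM in control siRNA samples. Its groups overlapped and it did not pass the test (-0.05, SE 0.03, adjusted p = 0.13), though it did without PERK siRNA sample 1 (adjusted p = 0.044) or control siRNA sample 1 (0.047). The TPM ratio of PSAT1 to PHGDH was 1.32 ± 0.063 with PERK siRNA and 1.56 ± 0.050 with control siRNA (SD, n = 3 each; difference -0.24 in log2 ratio, exact permutation p = 0.1).

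PSPH, the phosphatase of the last step, stood at 9.70, 8.34 and 10.1 CPM in PERK siRNA samples and at 10.4, 11.2 and 10.9 CPM in control siRNA samples (-0.21, SE 0.09, adjusted p = 0.049). DESeq2 did not call it (adjusted p = 0.17), nor did edgeR with median-ratio (0.0502) or upper-quartile scaling (0.067), and neither did edgeR without PERK siRNA sample 1 (0.058) or 2 (0.26) or control siRNA sample 2 (0.12) or 3 (0.090); without PERK siRNA sample 2 the fold change was -0.13.

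Both genes of the transsulfuration route, which makes cysteine from homocysteine, were higher, beside 34.4% of all genes tested. CBS, which catalyses its first step, had 42.0, 40.5 and 40.01 CPM in PERK siRNA samples, against 29.6, 29.4 and 28.2 CPM in control siRNA samples (0.49, SE 0.05, adjusted p = 4.5e-10). CTH, which releases cysteine, was scarce, with 64, 68 and 75 reads in PERK siRNA samples and 64, 41 and 51 reads in control siRNA samples (0.43, SE 0.17, adjusted p = 0.025). DESeq2 did not call CTH (adjusted p = 0.10), and neither did edgeR without PERK siRNA sample 3 (0.084) or control siRNA sample 2 (0.13) or 3 (0.058).

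Both genes of proline synthesis from glutamate rose by small amounts, beside 34.4% of all genes tested that rose. PYCR1, of the last step, had 109.9, 107 and 108 CPM in PERK siRNA samples, against 92.0, 83.8 and 91.5 CPM in control siRNA samples (0.28, SE 0.04, adjusted p = 5.0e-08). Of its annotated exon bases 14.1% overlap another coding gene. ALDH18A1, of the first step, averaged 143 ± 2.48 CPM with PERK siRNA and 136 ± 4.35 CPM with control siRNA (SD, n = 3 each; 0.08, SE 0.03, adjusted p = 0.018). DESeq2 did not call ALDH18A1 (adjusted p = 0.062), and neither did edgeR without PERK siRNA sample 1 (0.076) or control siRNA sample 2 (0.12). Their TPM ratio, PYCR1 to ALDH18A1, was 0.876 ± 0.013 with PERK siRNA and 0.763 ± 0.016 with control siRNA (SD, n = 3 each; difference 0.20 in log2 ratio, exact permutation p = 0.1).

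Transaminases fell or did not pass the test. GPT2, the mitochondrial alanine transaminase, had 27.4, 27.9 and 26.7 CPM in PERK siRNA samples, against 36.1, 36.8 and 35.7 CPM in control siRNA samples (-0.40, SE 0.05, adjusted p = 3.2e-08). The aspartate transaminases fell in both compartments. The cytosolic GOT1 had 81.6, 82.6 and 86.6 CPM in PERK siRNA samples, against 102, 101 and 107 CPM in control siRNA samples (-0.30, SE 0.03, adjusted p = 8.4e-09). The mitochondrial GOT2 averaged 181 ± 4.25 CPM with PERK siRNA and 202 ± 1.33 CPM with control siRNA (SD, n = 3 each; -0.16, SE 0.03, adjusted p = 8.2e-06). The GOT2 to GOT1 TPM ratio was 1.74 ± 0.084 with PERK siRNA and 1.58 ± 0.055 with control siRNA (SD, n = 3 each; difference 0.15 in log2 ratio, exact permutation p = 0.1). Of the GOT1 exon bases 19.3% overlap a non-coding gene on the opposite strand.

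The branched-chain transaminases BCAT1 (cytosolic; 203 ± 3.21 CPM with PERK siRNA, 211 ± 3.03 CPM with control siRNA; -0.06, adjusted p = 0.061) and BCAT2 (mitochondrial; 27.5 ± 1.78 CPM with PERK siRNA, 27.8 ± 0.99 CPM with control siRNA; SD, n = 3 each; -0.01, adjusted p = 0.84) did not pass. BCAT1 samples did not overlap between groups. The BCAT2 to BCAT1 ratio was the 1 pair of 12 whose samples overlapped (difference 0.04 in log2 ratio, exact permutation p = 0.6). How often other pairs of genes overlap was not computed. PCK2, the mitochondrial enzyme that makes phosphoenolpyruvate, rose to 29.8, 31.2 and 29.03 CPM in PERK siRNA samples, against 22.9, 23.2 and 27.2 CPM in control siRNA samples (0.30, SE 0.06, adjusted p = 0.00011).

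Asparagine synthetase and glutamine synthetase moved in opposite directions and by similar amounts. ASNS, whose promoter element is printed above, fell to 47.4, 49.8 and 49.6 CPM in PERK siRNA samples, against 56.3, 54.3 and 56.2 CPM in control siRNA samples (-0.18, SE 0.04, adjusted p = 0.00024). Of its annotated exon bases 44.6% overlap another gene of the same strand that is not protein coding. GLUL, which makes glutamine from glutamate, rose to 177, 179 and 187 CPM in PERK siRNA samples, against 157, 159 and 162 CPM in control siRNA samples (0.18, SE 0.03, adjusted p = 1.6e-06). Neither passed against a null of a 1.2-fold change.

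**Figure D5:**
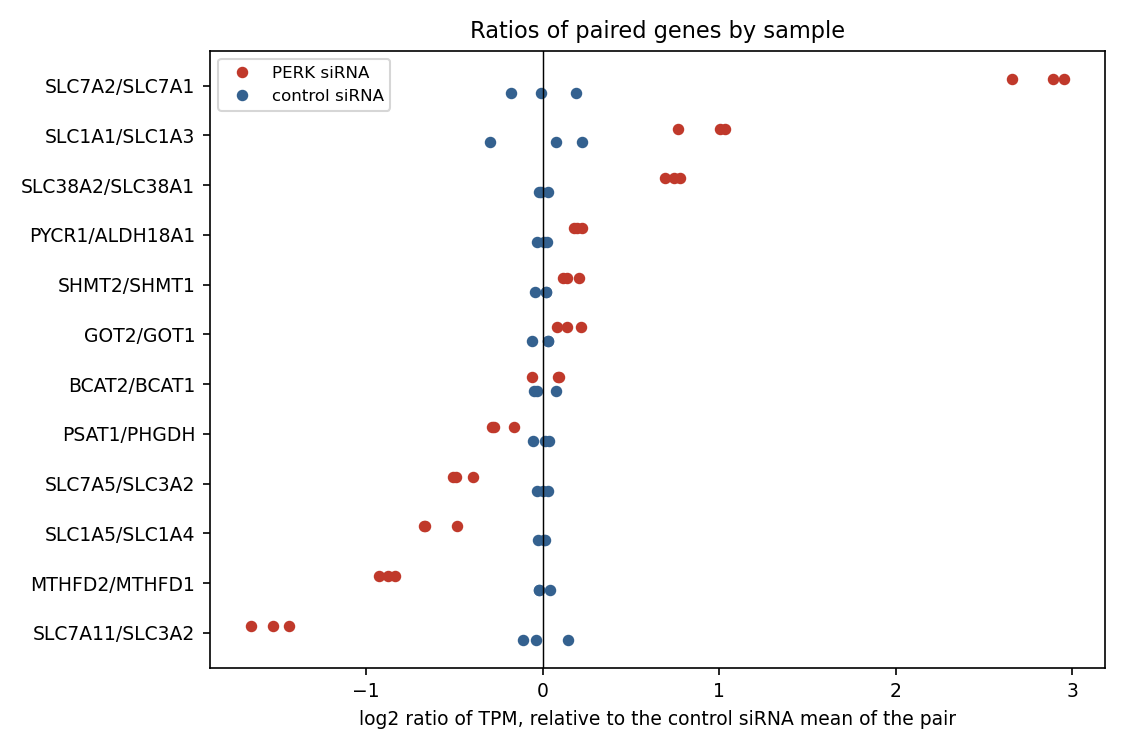
Log2 TPM ratio of 12 pairs of genes in each PERK siRNA (red, upper) and control siRNA (blue, lower) sample, relative to the control siRNA mean of the pair (x axis). In 11 of 12 pairs the samples do not overlap between groups, with mean differences from -1.54 for SLC7A11 over SLC3A2 to 2.83 for SLC7A2 over SLC7A1, and BCAT2 over BCAT1 overlaps. Of all single genes tested 71.8% did not overlap, and no share over other pairs of genes was computed.

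The pairs of related genes differed in how far their ratio moved. For SLC7A2 over SLC7A1 the difference in log2 ratio was 2.83, and for SLC1A1 over SLC1A3, of the acidic carriers, it was 0.93 (exact permutation p = 0.1 each). Ratios between isoenzymes of the 2 compartments moved by 0.04 to 0.15 for SHMT, GOT and BCAT, and by -0.88 for MTHFD2 over MTHFD1.

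Genes of amino acid supply outside the 35 were counted in the same way. Of 27 tested genes among 34 other amino acid and folate transporters, 5 rose and 13 fell (66.7% called, beside 69.5% of all genes), with a median log2 fold change of -0.13. Of 36 tested genes among 40 other enzymes, 16 rose and 13 fell (80.6% called), with a median of 0.10. Without regard to sign, the median log2 change was 0.28 for these other transporters and 0.30 for these other enzymes. It was 0.44 for the listed transporters, 0.20 for the listed enzymes and 0.28 over all genes tested. The smaller change of enzymes therefore held for the listed genes and not for these others. Against a 1.2-fold null, 2 transporters were higher and 10 lower, and 6 enzymes were higher and 8 lower, or 44.4% of these transporters and 38.9% of these enzymes beside 36.1% of all genes (18.1% in each direction).

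Of the 4 other transporters with the smallest adjusted p, 3 are mitochondrial carriers. SLC25A13, which exchanges aspartate and glutamate, fell to 48.0 ± 1.43 CPM with PERK siRNA, against 88.8 ± 3.12 CPM with control siRNA (SD, n = 3 each; -0.89, adjusted p = 3.6e-18). SFXN1, a mitochondrial serine carrier, rose to 101.9 ± 1.41 CPM with PERK siRNA, against 58.1 ± 2.03 CPM with control siRNA (0.81, adjusted p = 4.1e-18). SLC25A44, a mitochondrial carrier of branched-chain amino acids, fell (-0.69, adjusted p = 1.2e-12), as did SLC43A3 (-0.44, adjusted p = 2.8e-14), for which 79.4% of reads were placed uniquely and which carries purine bases.

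The 4 other enzymes were ODC1, ADI1, DLD and FPGS. ODC1, of polyamine synthesis from ornithine, fell to 184 ± 4.46 CPM with PERK siRNA, against 336 ± 8.62 CPM with control siRNA (SD, n = 3 each; -0.87, adjusted p = 9.8e-22). ADI1, of methionine salvage, rose to 153 ± 4.74 CPM with PERK siRNA, against 76.6 ± 1.71 CPM with control siRNA (1.00, adjusted p = 2.4e-21). FPGS, which retains folates in cells by adding glutamates, rose (0.74, adjusted p = 2.2e-14), and DLD, a subunit of the glycine cleavage system and of several dehydrogenases, fell (-0.57, adjusted p = 4.4e-17).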

How the data were processed

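The sample titles gave each group and replicate number. Libraries came from a directional kit, per the labels' protocols, and hg38 is the build that the submitters' processing notes name. Neither the aligner nor the counter, nor whether strand was used, is stated in those sources. The authors deposited, per the file headers, counts of total and of unique exon reads, and TPM, which equalled reads over exon length scaled to 1000000 to within 7.1e-08. Total exon reads were tested with edgeR 4.0.16 in R 4.3.3 (quasi-likelihood, TMM, default filter, robust, no covariate) and adjusted by Benjamini and Hochberg over 12973 genes. CPM carry TMM factors, and SE are from the F statistic. TPM was used for sums and for 12 ratios, tested by exact permutation (SciPy 1.17.1). Places and exon overlaps came from GENCODE 29 (GRCh38, the assembly of hg38), matched on gene identifiers. The code was tested on simulated data. The members, lists, motifs and tests were chosen with earlier results of these data known. Every one of the 35 genes is named, with EIF2AK3, ATF4, DDIT3 and the 4 genes of smallest adjusted p in each further list. Alternatives included DESeq2 1.42.0, limma 3.58.1 (voom), other scalings and filters, unique reads and leaving out each sample. Chi-square tests of counts gave 1.67 to 2.29 per degree of freedom between replicates, above sampling noise. Floors cover counting error only. SD and SE also take in the spread between same-group samples, which may be technical.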

Additional observations from a re-analysis of the deposited data

How the results depend on the processing

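Over 16 alternatives for each of 34 tested genes, 492 of 544 results kept their direction and their side of the threshold, 38 lost a call, 4 gained one and 10 changed sign. Every change of sign was in a gene that did not pass the test: with upper-quartile scaling BCAT2 (0.0016), SLC1A1 (0.0090) and SLC38A2 (0.0040), and over the fits that leave out 1 sample BCAT2 (-0.054 to 0.039), SLC1A1 (-0.058 to 0.033) and SLC38A2 (-0.044 to 0.013). Of the lost calls 14 were against a 1.2-fold null, which left 3 enzymes higher and 2 lower, 1 transporter higher, and 2345 genes higher and 2344 lower in all. The other lost calls were of PSPH, ALDH18A1, CTH and SLC43A1. BCAT1 passed with no scaling factors (adjusted p = 0.024) and with no filter (0.039). All 12 ratios kept their direction on log2(TPM + 1), on unique reads and without any 1 sample. Same-numbered samples did not deviate together (correlations of -0.04 to 0.02), so the numbers were not taken as pairs; with the replicate number as a block, 10 enzymes were higher and 5 lower, 2 transporters higher and 8 lower, EIF2AK3 was at -1.42, and the calls of PSPH (adjusted p = 0.054) and SLC43A1 (0.056) were lost. Depth limits SLC6A9, SLC7A2, SLC1A3 and CTH, whose counts were at most 153 reads in a sample.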

Other observations

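The genes that sense amino acids or regulate ATF4 moved in both directions, with 8 rises and 9 falls among 21 tested genes (81.0% called, beside 69.5% of all genes, 34.4% higher and 35% lower) and a median log2 fold change of -0.07. Against a 1.2-fold null, 6 of them were higher and 4 lower (47.6%), beside 36.1% of all genes (18.1% in each direction). ATF4 was higher with PERK siRNA, at 111.9, 122 and 113 CPM, against 87.5, 88.2 and 91.3 CPM in control siRNA samples (0.38, SE 0.04, adjusted p = 1.1e-10, edgeR). DDIT3, which encodes the transcription factor CHOP, was lower, at 6.22 ± 0.47 CPM with PERK siRNA and 8.77 ± 0.54 CPM with control siRNA (SD, n = 3 each; -0.50, adjusted p = 0.00012), and 85.4% of its reads were placed uniquely. The 4 genes of this list with the smallest adjusted p were TRIB3, GCN1, CEBPB and RPTOR. TRIB3, a pseudokinase, fell to 34.4 ± 2.24 CPM with PERK siRNA, against 61.1 ± 1.54 CPM with control siRNA (-0.83, adjusted p = 1.2e-15). CEBPB, a partner of ATF4 on its response elements, fell to 56.3 ± 4.49 CPM with PERK siRNA, against 90.2 ± 1.73 CPM with control siRNA (-0.68, adjusted p = 2.1e-13). GCN1, an activator of the kinase GCN2, rose (0.45, adjusted p = 1.8e-15), and RPTOR, a subunit of the growth regulator mTORC1, fell (-0.39, adjusted p = 7.4e-12).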
